A study of Mus musculus with 8 samples.

Results

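The 9 genes described here mark the fibroblasts of peripheral nerve: Pdgfra, Sox9 and Osr2, which are associated with fibroblasts in general and with those of the endoneurium, and Dpp4, Pi16, Clec3b, Tnxb, Dpt and Fap, which are associated with fibroblasts of the epineurium and of vessel walls. They were chosen by gene symbol, and all 9 were among the 23356 genes of the deposited table. They were measured in sciatic nerves of F1 C57BL/6;FVB/N mice at postnatal day 30 by RNA sequencing of poly A selected RNA. There were 4 genotypes of 2 libraries. Wild type (WT) served as the control. Q215X/+ mice carried the mutation of that name on 1 allele. HA-NRG1 type III/+ mice carried a neuregulin 1 transgene of the type III isoform. HA-NRG1 type III/+:Q215X/+ mice, called the double here, carried both. The sources used here do not give the promoter of the transgene, the number of animals behind a library, or whether the 2 libraries of a genotype came from different animals. The p-values therefore reflect only library-to-library spread, part of which may be technical, and for WT, Q215X/+ and the double perhaps all of it. The HA-NRG1 type III/+ libraries differed in sex by the sex-linked genes described below, so they did not come from the same animal. Levels are FPKM, which counts sequenced fragments relative to the gene's length and to the depth of its library.

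A nerve is built in layers. The epineurium on the outside is rich in collagen and fat, the perineurium wraps each bundle of axons, and the endoneurium fills the bundle between the myelinated fibers. Fibroblasts of the outer layer resemble the adventitial fibroblasts around vessels, which carry DPP4 and PI16, while fibroblasts of the endoneurium share SOX9 and OSR2 with other cells of the connective tissue. Neuregulin 1 type III is known as the axonal signal that sets myelin thickness in Schwann cells through ERBB receptors.

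The columns of the table end in 0 or 1, and no label ties these endings to a replicate number. They are called set 0 and set 1 here. Nrg1 stood at 0.164 to 0.326 FPKM without the transgene and at 0.312 to 0.498 FPKM with it, so the ranges overlapped with both sets pooled. Within a set they did not overlap, at low levels throughout. Set 0 had 0.204 and 0.326 without against 0.393 and 0.498 FPKM with the transgene. Set 1 had 0.164 and 0.19 against 0.312 and 0.358 FPKM. By sex-linked genes, the WT and double libraries were all female and the Q215X/+ pair was male. HA-NRG1 type III/+ was male in set 0 and female in set 1. Sex therefore cannot be told apart from genotype in the comparison of Q215X/+ with WT, nor in that of the double with Q215X/+. The results over both backgrounds and for the difference between backgrounds draw on the latter comparison. The Q215X/+ library of set 1 stood apart in 8 skeletal muscle genes, which summed to 904 FPKM there and to 7.9 to 76.7 FPKM in the other libraries. It also had the highest sum of 9 adipocyte genes, 1533 FPKM against 541 to 1123 FPKM elsewhere. Genes of red blood cells, 5 in all, summed to 599 and 1279 FPKM in set 0 and set 1 of Q215X/+ and to 49.1 to 244 FPKM in the other 6 libraries. Over both backgrounds their median difference with the transgene was -2.32 on the log2(FPKM + 1) scale, and 4 of 5 fell in the limma fit with the set as a block (7.1% of all tested genes were called in either direction). Their part in the results below was not tested.

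The stretches before the start of 3 members are shown because Pi16 and Dpt varied together across libraries while Dpp4 hardly varied. They come from RefSeq on GRCm38.p6, whose promoter table held 5 of the 9 members (Pdgfra, Dpp4, Pi16, Tnxb and Dpt), and run 5′ to 3′ on the gene's own strand. The stretch of Dpp4 is chr2:62412316-62412481 on the minus strand, that of Pi16 is chr17:29318632-29318795 on the plus strand, and that of Dpt is chr1:164796413-164796662 on the plus strand. Capitals mark a TATA box (TATAAA) or an E-box (CANNTG).
Dpp4: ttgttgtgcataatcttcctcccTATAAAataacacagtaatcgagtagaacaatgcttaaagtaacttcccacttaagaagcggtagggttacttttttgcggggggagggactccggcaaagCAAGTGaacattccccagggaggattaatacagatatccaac
Pi16: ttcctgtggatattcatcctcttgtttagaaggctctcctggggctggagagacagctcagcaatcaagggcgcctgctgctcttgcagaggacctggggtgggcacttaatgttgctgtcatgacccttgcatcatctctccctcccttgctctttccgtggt
Dpt: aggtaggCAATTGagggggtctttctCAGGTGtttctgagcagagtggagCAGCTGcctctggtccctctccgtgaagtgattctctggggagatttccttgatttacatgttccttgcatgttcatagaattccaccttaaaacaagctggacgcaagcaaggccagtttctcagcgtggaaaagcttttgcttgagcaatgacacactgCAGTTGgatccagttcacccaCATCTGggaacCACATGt
Dpp4 held 1 TATA box and 1 E-box, Dpt held 6 E-boxes, and Pi16 held neither. Both strands were searched, and the stretches also held none of a CCAAT box (CCAAT), a GC box (GGGCGG), an AP-1 site (TGANTCA), an EGR core (GCGTGGGCG) or a SOX core (ACAAAG). Of 32851 mouse promoters of the same length, 7.91% held the TATA box at the length of Dpp4, 52.3% held an E-box at the length of Pi16, and 66.2% held one at the length of Dpt. A match is only a run of letters, and the stretches of Pi16 and Dpt shared none of the motifs searched.

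All 9 members passed the filter of a mean of at least 1 FPKM, which left 12530 genes to test. Clec3b was the most abundant member with a mean of 126 FPKM over the 8 libraries, above 95.7% of the tested genes. Dpt followed at 50.2 FPKM. Tnxb (34.8), Pdgfra (34.3) and Pi16 (33.0 FPKM) lay close together, and their ranges over libraries overlapped. Fap had a mean of 27.9, Osr2 of 12.9, Dpp4 of 7.43 and Sox9 of 5.42 FPKM. Dpp4 and Sox9 did not overlap, with 6.75 to 8.28 FPKM for Dpp4 and 5.07 to 6.13 FPKM for Sox9. These are levels of whole nerve, in which fewer cells of a type and less RNA per cell cannot be told apart. In the annotation, Pdgfra, Pi16, Tnxb and Dpt overlap other genes that the table does not list (a microRNA, long noncoding RNAs, a small nuclear RNA and a pseudogene of Cyp21a2). The sources used here do not say how strand was handled, so reads from those genes cannot be told apart from the members' own.

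**Figure D1:**
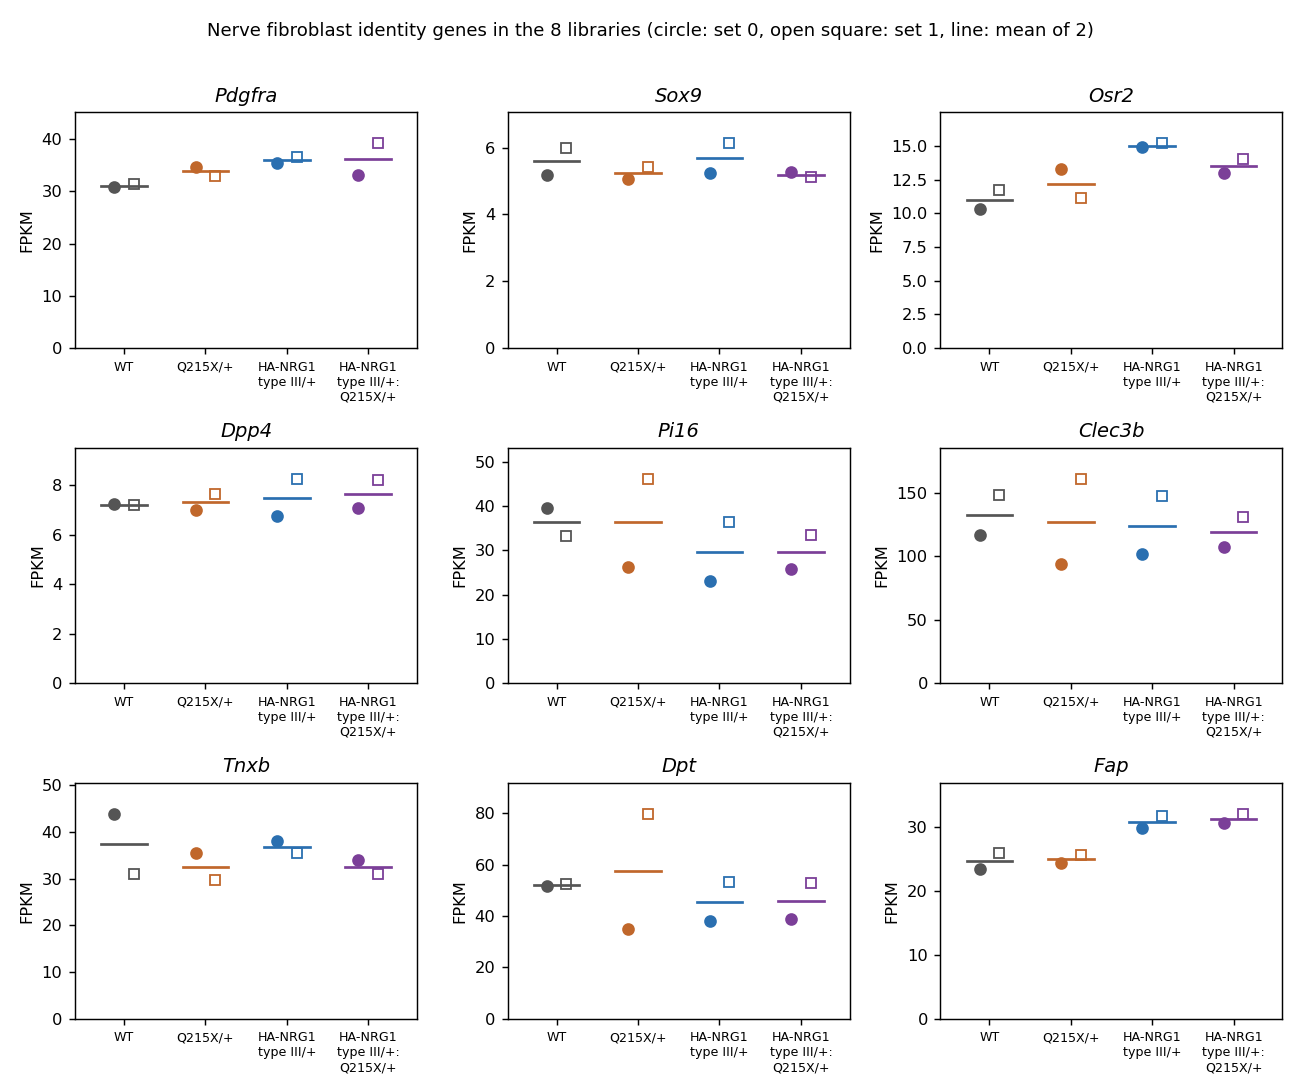
FPKM of the 9 genes (y axis, from 0, a scale per gene) in the 4 genotypes (x axis), with a filled circle for set 0, an open square for set 1 and a line at the mean of the 2. Fap lies at 29.8 to 32.0 FPKM in the 4 libraries with the transgene and at 23.4 to 25.9 FPKM in the 4 without it, while Pi16, Clec3b and Dpt differ more between sets than between genotypes.

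Fap, a membrane-bound serine protease of activated fibroblasts that cleaves after proline, was the member whose level followed the transgene. Its FPKM in set 0 and set 1 was 23.4 and 25.9 in WT, 24.3 and 25.5 in Q215X/+, 29.8 and 31.7 with the transgene alone, and 30.5 and 32.0 in the double. The 4 libraries with the transgene were all above the 4 without it. The lowest value with the transgene, 29.8 FPKM, was that of the male HA-NRG1 type III/+ library of set 0. Sex and set cannot be told apart in that pair. Of all tested genes, 4.88% were higher with the transgene with no overlap, and 10.1% did not overlap in either direction, so 1 such gene among 9 is near that background.

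The means of Fap were 24.6 ± 1.81 in WT, 24.9 ± 0.857 in Q215X/+, 30.8 ± 1.28 with the transgene alone and 31.2 ± 1.12 FPKM in the double (SD, n = 2 each). The ratio was 1.25 for the transgene against WT, 1.25 for the double against Q215X/+ and 1.27 for the double against WT. Within set 0 and set 1 the first ratio was 1.28 and 1.22, and the second was 1.25 in both sets. These comparisons share libraries and do not support one another as separate evidence.

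The call for Fap depended on how the sets were treated. With limma on log2(FPKM + 1) and no term for the set, the difference was 0.31 (SE 0.09, adjusted p = 0.42) for HA-NRG1 type III/+ against WT and 0.31 (SE 0.09, adjusted p = 0.426) for the double against Q215X/+. Over both backgrounds it was 0.31 (SE 0.06, 95% interval 0.16 to 0.46, adjusted p = 0.0911), so no call was made. With the set as a block, Fap rose with the transgene in each background (limma adjusted p = 0.044 and 0.0449, SE 0.05) and over both (adjusted p = 0.00768, SE 0.04). In that blocked fit, leaving out any 1 of the 8 libraries ended the call in each background alone, with adjusted p from 0.0593 to 0.229 against WT and from 0.0845 to 0.407 against Q215X/+. Over both backgrounds the call held in 6 of 8 such fits, 0.0274 without the Q215X/+ library rich in muscle genes among them, and was lost without either double library (adjusted p up to 0.0691). With a term for sex besides the block, the limma adjusted p was 0.229 and 0.753 in the single backgrounds and 0.044 over both.

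Fap did not differ detectably with the mutation. Q215X/+ minus WT was 0.02 on the log2(FPKM + 1) scale, with a 95% interval of -0.19 to 0.23. The difference between the transgene's effects in the mutant and WT backgrounds was 0.00, with an interval of -0.29 to 0.30.

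Dpp4, a close relative of Fap that removes dipeptides from the ends of peptides, showed no such pattern. Its FPKM in set 0 and set 1 was 7.24 and 7.2 in WT, 7.02 and 7.65 in Q215X/+, 6.75 and 8.28 with the transgene alone, and 7.08 and 8.23 in the double. The groups overlapped in each comparison. Over both backgrounds the log2 difference was 0.05, with a 95% interval of -0.15 to 0.25. Dpp4 and Fap are neighbours on mouse chromosome 2, 88.6 kb apart, with 2 annotated genes between them. Gcg, the glucagon gene, is the protein-coding gene of that interval and lay at 0.245 to 1.3 FPKM.

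Among the other relatives, Dpp7 had a log2 difference of 0.18 (limma adjusted p = 0.481, with block 0.0826) over both backgrounds. The DPP4 family list held 7 tested genes, of which 6 lay above 0 with a median difference of 0.04, against -0.01 over all tested genes, and Fap was the 1 called with the block. Dpp6, a relative without protease activity that accompanies potassium channels, was below the filter. It stood at 0.0904 to 0.143 FPKM in the 4 libraries without the transgene and at 0.684 to 1.24 FPKM in the 4 with it. These are low levels, Dpp6 was named after they were seen, and the filtered fits did not include it. The fit without the filter did, but its result for Dpp6 is not given here. Of the genes that passed the filter, which leave out Dpp6, 4.88% were higher with the transgene with no overlap.

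Pdgfra encodes the receptor for platelet-derived growth factors that marks fibroblasts in most organs. It stood at 30.9 and 31.3 in WT, 34.6 and 32.9 in Q215X/+, 35.4 and 36.5 with the transgene alone, and 33.1 and 39.2 FPKM in the double. WT was the lowest group in both sets, and the double overlapped Q215X/+. Over both backgrounds the difference was 0.15 on the log2(FPKM + 1) scale (95% interval -0.02 to 0.32, limma adjusted p = 0.54, with block 0.182).

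Osr2, a zinc finger transcription factor of the odd-skipped family, stood at 10.3 and 11.7 in WT, 13.3 and 11.1 in Q215X/+, 14.9 and 15.2 with the transgene alone, and 13.0 and 14.0 FPKM in the double. Both HA-NRG1 type III/+ libraries lay above all others, and the libraries with and without the transgene overlapped between 13.0 and 13.3 FPKM. HA-NRG1 type III/+ minus WT was 0.42 (SE 0.11, 95% interval 0.16 to 0.68), the largest difference of a member in that comparison. It was not called with all 8 libraries (limma adjusted p = 0.371, with block 0.109). In the blocked fits that left out 1 library, Osr2 was called in 2 of 8, those without either Q215X/+ library (adjusted p from 0.0494 to 0.37 over the 8 fits). Over both backgrounds, where the difference was 0.28 (adjusted p = 0.213, with block 0.0754), it was called in 1 of 8, the fit without the Q215X/+ library of set 0 (adjusted p from 0.0272 to 0.292). The double minus Q215X/+ was 0.13, with -0.0395 in set 0 and 0.307 in set 1. The test of the difference between the 2 backgrounds gave -0.29 with an interval of -0.66 to 0.08. Osr1, the other odd-skipped gene, lay between 2.87 and 4.26 FPKM.

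Sox9, a transcription factor of cartilage and of connective tissue precursors, was the least abundant member and the one with the smallest spread over libraries. It stood at 5.17 and 6.0 in WT, 5.07 and 5.41 in Q215X/+, 5.23 and 6.13 with the transgene alone, and 5.26 and 5.11 FPKM in the double. All groups overlapped. Over both backgrounds the log2 difference was 0.00, with a 95% interval of -0.17 to 0.18.

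The secreted members differed more between libraries than between genotypes. Pi16, a CAP domain protein of adventitial fibroblasts, stood at 39.6 and 33.2 in WT, 26.3 and 46.2 in Q215X/+, 23.1 and 36.3 with the transgene alone, and 25.9 and 33.4 FPKM in the double. Dpt, dermatopontin, which binds collagen fibrils and decorin, stood at 51.5 and 52.6 in WT, 35.1 and 79.8 in Q215X/+, 38.1 and 53.1 with the transgene alone, and 39.0 and 52.7 FPKM in the double. Clec3b, tetranectin, which binds plasminogen, stood at 117 and 148 in WT, 93.9 and 161 in Q215X/+, 102 and 147 with the transgene alone, and 107 and 131 FPKM in the double. The highest value of each of these 3 genes was in the Q215X/+ library of set 1, and set 1 was above set 0 except for Pi16 in WT.

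Over the 8 libraries the SD of log2(FPKM + 1) was 0.372 for Dpt, 0.33 for Pi16 and 0.282 for Clec3b, against a median of 0.129 over the tested genes. Their spread was wider than that of 95.6%, 94.0% and 90.7% of the tested genes. The SD of Dpp4 was 0.0954 and that of Sox9 was 0.0899. With each set centred on its own mean, the correlation over the 8 libraries was 0.89 for Pi16 and Dpt, 0.84 for Clec3b and Dpt, and 0.76 for Pi16 and Clec3b, as a description of libraries that share genotypes and sets. Pi16 and Osr2 ran the opposite way, with -0.78 (-0.59 without centring). Pdgfra and Osr2 (0.84), Osr2 and Fap (0.81) and Pdgfra and Fap (0.73) ran together. Among the epineurial-type members, Fap gave -0.64 with Pi16, -0.52 with Dpt, -0.42 with Clec3b, -0.13 with Tnxb and 0.38 with Dpp4. Without centring, Fap gave -0.31 with Pi16, -0.12 with Dpt and 0.09 with Clec3b.

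No genotype difference of Pi16, Dpt or Clec3b held up against their spread over libraries. Over both backgrounds the log2 difference with the transgene was -0.28 for Pi16 (95% interval -0.81 to 0.26), -0.21 for Dpt (-0.86 to 0.43) and -0.08 for Clec3b (-0.59 to 0.43). Without the block and the Q215X/+ library of set 1, the double minus Q215X/+ went from -0.22 to 0.36 for Dpt. It went from -0.24 to 0.16 for Pi16 and from -0.06 to 0.33 for Clec3b. These fits set the double libraries of both sets against Q215X/+ of set 0 alone. Within set 0 the difference was 0.148 for Dpt, -0.019 for Pi16 and 0.182 for Clec3b. Within set 1 it was -0.589, -0.456 and -0.293. The adipocyte sum was 1064 and 772 FPKM in the WT libraries of set 0 and set 1, 541 and 1533 in Q215X/+, 723 and 926 with the transgene alone, and 895 and 1123 in the double, with none of its 9 genes at 0. Q215X/+ held both its lowest and its highest value, and its part in the levels of Pi16, Dpt and Clec3b was not tested.

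Tnxb, tenascin-X, which organises collagen fibrils, went the other way between sets. It stood at 43.9 and 31.1 in WT, 35.4 and 29.7 in Q215X/+, 38.0 and 35.5 with the transgene alone, and 33.9 and 31.0 FPKM in the double. Set 0 was above set 1 in 4 of 4 genotypes, as for 21.9% of the tested genes, and Clec3b, Dpt and Fap were above in set 1 in 4 of 4, as for 31.5%. Over both backgrounds the log2 difference of Tnxb was -0.01, with a 95% interval of -0.30 to 0.29.

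**Figure D2:**
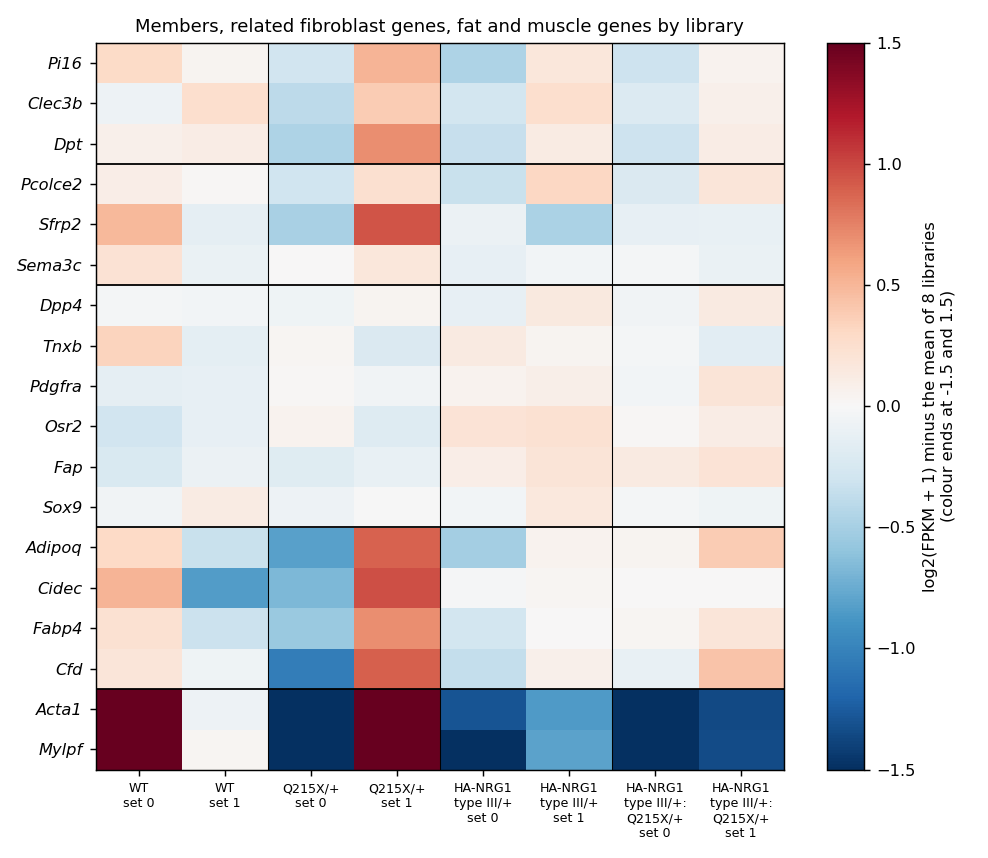
Colour gives log2(FPKM + 1) minus the gene's mean over the 8 libraries (columns, by genotype and set). Rows are the 9 members, 3 picked epineurial-type genes (Pcolce2, Sfrp2 and Sema3c), 4 adipocyte genes and 2 skeletal muscle genes. Pi16, Clec3b and Dpt are highest in the Q215X/+ library of set 1, where the full list of 9 adipocyte genes summed to 1533 FPKM. The full list of 20 other epineurial-type genes summed to 1831 FPKM in that library. In set 1 it summed to 2137 in WT, 2088 with the transgene alone and 2050 FPKM in the double. Fap is above its mean in the 4 transgene libraries.

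Counted over the members, limma without a block called 0 of 9 in each of the 6 comparisons. The share of all tested genes called was 0.00798% for Q215X/+ against WT, 0.0638% for HA-NRG1 type III/+ against WT, 0.0399% for the double against Q215X/+, 0.112% for the double against WT, 0.99% over both backgrounds and 0.00798% for the difference between backgrounds. Members whose 2 libraries of one genotype both lay above or both below those of the other numbered 1 for Q215X/+ against WT (Pdgfra, with 18.9% of all tested genes), 3 for HA-NRG1 type III/+ against WT (Pdgfra, Osr2 and Fap, 30.5%), 1 for the double against Q215X/+ (Fap, 29.9%) and 3 for the double against WT (Pdgfra, Osr2 and Fap, 31.1%). These shares are near the background or below it. At an unadjusted p under 0.05 the members numbered 0, 2, 1, 2, 2 and 0 of 9 in the same order, against 2.04%, 6.9%, 6.58%, 7.29%, 11.2% and 1.11% of all tested genes. With the block, 1 of 9 (Fap) was called for the transgene against WT (2.11% of all tested genes), in the double against Q215X/+ (1.72%), in the double against WT (2.39%) and over both backgrounds (7.1%). No member was called with the block for Q215X/+ against WT or for the difference between backgrounds (0.00798% each).

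**Figure D3:**
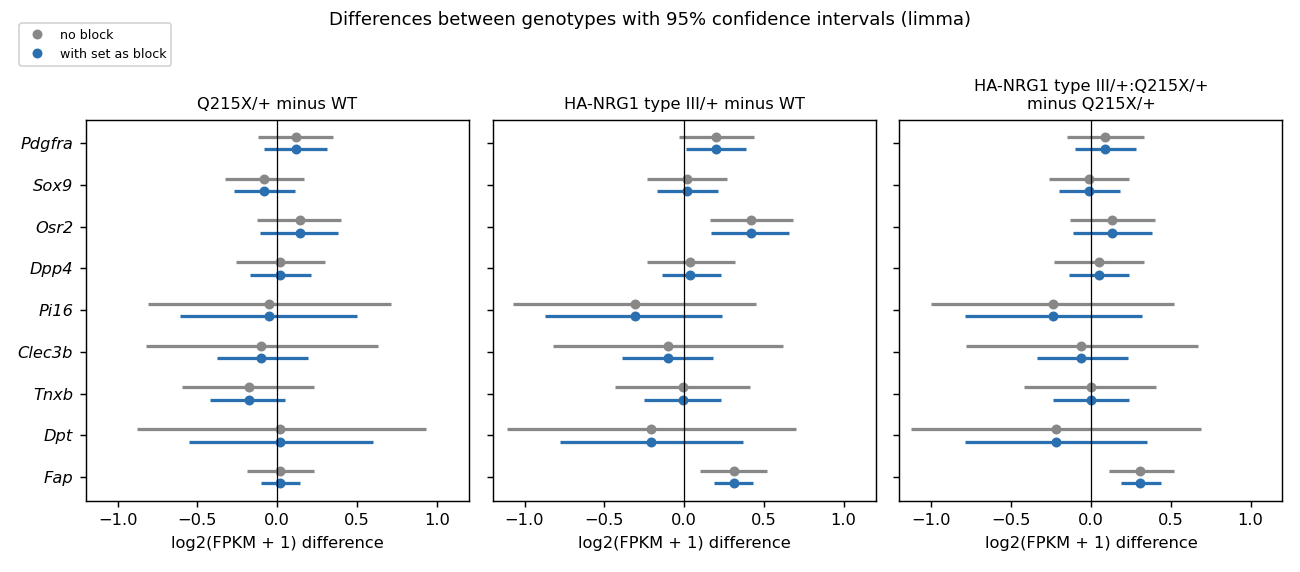
Points are differences in log2(FPKM + 1) between genotypes (x axis) for the 9 genes (y axis) and lines are 95% intervals from limma, in grey without and in blue with the set as a block. Intervals are per gene and not adjusted for the number of genes, and no member was called without the block. Fap has narrow intervals above 0 in both comparisons of the transgene. For HA-NRG1 type III/+ minus WT, Osr2 (0.16 to 0.68 without the block) and, with the block, Pdgfra (0.01 to 0.39) also lie above 0. There the interval of Dpt without the block reaches from -1.11 to 0.70.

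Further fibroblast genes were read from lists drawn up with earlier results of these data known. Over both backgrounds, 46.7% of all tested genes lay above 0, with a median of -0.01, and 7.1% were called with the block, and each list below is to be read against these shares. Of the 15 tested genes that mark fibroblasts of all kinds, 13 lay above 0 over both backgrounds, with a median of 0.11, and 3 rose with the block and none fell. Lum, lumican, a collagen-binding proteoglycan, stood at 398 to 418 FPKM without the transgene and at 568 to 649 FPKM with it, a log2 difference of 0.56 (limma adjusted p = 0.0569, with block 0.00462). Mmp2, a gelatinase, differed by 0.42 (adjusted p = 0.192, with block 0.00981), and Lox, which crosslinks collagen, by 0.40 (adjusted p = 0.149, with block 0.0265). Lists of other cell types also lay mostly above 0 in this comparison. These were 7 of 8 endothelial genes (median 0.12), 7 of 9 macrophage genes (0.12) and 8 of 11 perineurial genes (0.13). For pericytes and smooth muscle it was 7 of 10 (0.05), and for adipocytes 6 of 9 (0.02). It was 0 of 7 for skeletal muscle and 0 of 5 for red blood cells. Genes of myelinating Schwann cells also lay mostly below 0 in the same comparison. Of 12 tested, 1 lay above 0, the median was -0.21, and with the block 5 fell and 1 rose. Cnp, a myelin enzyme, was the 1 called without the block, with a difference of -0.87 (SE 0.11, limma adjusted p = 0.0332). The part of the shift of Schwann cell genes in the levels of the fibroblast genes was not tested.

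Of 8 other endoneurial-type genes, 6 lay above 0 with a median of 0.09, and 2 rose with the block. These were Meox1, a homeobox factor (0.43, limma adjusted p = 0.0128), and Abca9, a lipid transporter (0.26, adjusted p = 0.0363). Of 18 other epineurial-type genes, 8 lay above 0 with a median of -0.02. There Anxa3, an annexin, rose by 0.45 (with block, limma adjusted p = 0.00587), and Ly6a, the Sca-1 surface antigen, fell by 0.38 (with block, adjusted p = 0.0352). None of these 4 was called without the block.

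**Figure D4:**
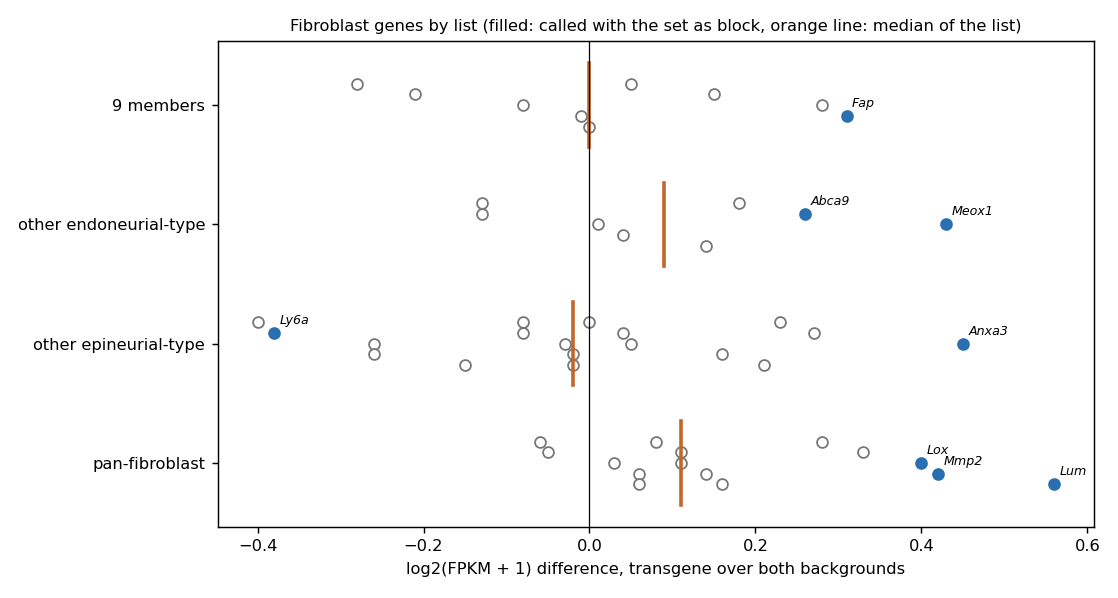
Each circle is a gene's log2(FPKM + 1) difference for the transgene over both backgrounds (x axis), by list (y axis), filled where called with the set as a block, and the orange line is the list's median. The median is 0.00 for the 9 members, 0.09 for other endoneurial-type, -0.02 for other epineurial-type and 0.11 for pan-fibroblast genes.

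The partners of the members were read in the same way, against the 7.1% of all tested genes called with the block. Of 7 genes for platelet-derived growth factors and their receptors, 1 fell over both backgrounds with the block. That gene was Pdgfd, a ligand mainly of the other receptor, Pdgfrb, with a difference of -0.31 (limma adjusted p = 0.0345 with block, 0.153 without). Of the 9 tested partners and targets of SOX9, 6 lay above 0 with a median of 0.18, and with the block 2 rose and 1 fell. Lect1, the table's symbol for chondromodulin of cartilage and tendon, was called without the block. It stood at 15.9 and 14.7 in WT, 31.0 and 47.8 in Q215X/+, 49.7 and 53.9 with the transgene alone, and 91.0 and 90.2 FPKM in the double. Each library of the double was above all others, and the difference over both backgrounds was 1.45 (SE 0.13, limma adjusted p = 0.0149). Q215X/+ minus WT was 1.28 for Lect1 and was not called (adjusted p = 0.695, with block 0.2). With the block, the cartilage collagen genes moved in opposite directions, with Col2a1 up by 0.52 (limma adjusted p = 0.0302) and Col11a1 at -0.36 (adjusted p = 0.0133).

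Tnc, the tenascin of growing and injured tissue, stood at 1.36 to 2.86 FPKM without the transgene and at 2.94 to 4.86 FPKM with it. Its difference was 0.69 (limma adjusted p = 0.00531 with block, 0.248 without), and Tnxb, at -0.01, was the other of the 2 tested tenascins. The difference between Tnc and Tnxb was not tested. Of 6 tested relatives of Pi16 with a CAP domain, Pi16 included, 5 lay above 0 and none was called. Of 21 tested genes of elastic fibers and of the matrix that presents TGF beta, 17 lay above 0 with a median of 0.07, and 3 rose with the block, against 46.7% of all tested genes above 0 and 7.1% called. These were Fbln5 (0.42, limma adjusted p = 0.0158) and Efemp1 (0.30, adjusted p = 0.0428), which are fibulins, and Ltbp1 (0.41, adjusted p = 0.00934), which holds latent TGF beta in the matrix. Of 13 tested organisers of collagen fibrils, 8 lay above 0, and Lox was called with the block.

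Genes whose levels ran most like a member's were ranked by Pearson's r over the 8 libraries with each set centred, among 11739 genes. For Fap they were Ms4a7 (0.999), a macrophage membrane protein, Hapln2 (0.997), a hyaluronan link protein, and Gas2 (0.992), an actin-binding protein. Gas2 stood at 10.7 to 14.1 FPKM without and at 19.2 to 21.8 FPKM with the transgene. As it was picked for its likeness to Fap in these same libraries, this gap is no separate evidence. For Dpt they were Plin4 (0.986), a coat protein of fat droplets, Tmem216 (0.982) and Myl1 (0.974), a myosin light chain of skeletal muscle that reached 146 FPKM in the Q215X/+ library of set 1 and at most 10.8 FPKM elsewhere. For Pi16 they were Gtf2i, Sema3c and Mbd1 (0.988, 0.983 and 0.982), and Sema3c belongs to the epineurial-type list. With 8 libraries and this many candidates, values this high were found for each member, down to 0.951 for Katna1 with Sox9.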

How the data were processed

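RNA of sciatic nerve was sequenced on a HiSeq2500 from TruSeq poly A libraries, per the labels' protocols. The deposited table holds 1 FPKM value per gene and library, as the authors computed it. The submitters' processing notes name TopHat2 2.0.9, Cufflinks 2.2.0 and mm10, without roles. The sources used here do not give the annotation, strand handling or read depth. As the depth is unknown, values carry no counting interval. The FPKM of a library summed to 443733 to 530901. Each line has an empty second field that the header lacks, and columns were matched with it removed. The column stem hani was taken as HA-NRG1 type III/+ by elimination.

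The 12530 genes that averaged 1 FPKM or more were fitted with limma 3.58.1 (R 4.3.3) on log2(FPKM + 1), with a trended prior, 4 group means over the 8 libraries and 4 residual degrees of freedom. Benjamini-Hochberg adjustment ran over all tested genes, with a threshold of 0.05. Differences on this scale understate changes of low genes. The set served as a block in a further fit because the set differences of all 6 pairs of genotypes correlated (0.118 to 0.304). That pairing rests on the data, not on a label.

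The scripts were tested on simulated data. Alternatives were a sex term, a pseudocount of 0.1, no filter and leaving out each library. Median-ratio scaling and leaving out libraries under the block were added after seeing the data. The members, lists and rules were chosen with earlier results of these data known. The rule named all 9 members, up to 4 called genes of a list or else the 2 with the smallest p, and the 3 most alike genes per member, without predicted, short RNA and sex-linked genes; only part of these are printed. Dpp6, Dpp7, Osr1 and Gcg were named after their values were seen. The level of the mutated gene is not reported here. Gene positions come from RefSeq GRCm38.p6, the assembly behind mm10.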

Additional observations from a re-analysis of the deposited data

How the results depend on the processing

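Counts of called genes depended strongly on the treatment of sets. With the replicate block, 265 genes were called for HA-NRG1 type III/+ against WT, 216 for the double against Q215X/+, 299 for the double against WT and 890 over both backgrounds, against 8, 5, 14 and 124 without it, and 1 member (Fap) was called in each of the 4, against 0. With all 8 libraries the block changed no other member's call, and with 1 Q215X/+ library left out it also called Osr2. Median-ratio scaling with the block, added after seeing the data, called 248, 213, 297 and 889 genes and again 1 member in each. A sex term called 8 genes for Q215X/+ against WT, 9 for the double against Q215X/+, 22 over both backgrounds and 9 for the difference between backgrounds. With the sex term and the block together these were 9, 11, 304 and 9, with 98 for the double against WT, and Fap was the 1 member called, over both backgrounds. Without the filter on low values, 2, 0, 3 and 59 genes were called for Q215X/+ against WT, HA-NRG1 type III/+ against WT, the double against Q215X/+ and both backgrounds. The cause of these shifts was not tested.

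Leaving out each library without the block called 1 to 15 genes for Q215X/+ against WT, 1 to 10 for HA-NRG1 type III/+ against WT, 1 to 17 for the double against Q215X/+, 4 to 17 for the double against WT, 11 to 42 over both backgrounds and 3 to 11 for the difference between backgrounds, with 0 members in each. Of the 54 member differences, none called without the block, the sign changed in 0 with the block, the lower pseudocount or no filter, in 1 with median-ratio scaling, in 15 with a sex term, in 12 with sex term and block, and in 6 to 12 when 1 library was left out. The sex term rests on the HA-NRG1 type III/+ pair, 1 male in set 0 and 1 female in set 1. Without the block it therefore cannot be told apart from the set. In that fit Pi16 in Q215X/+ against WT moved from -0.05 to 0.58. Within the HA-NRG1 type III/+ pair, set 1 minus set 0 was 0.629 for Pi16 on the log2(FPKM + 1) scale. The read depth is unknown, so counting error could not be set apart from the spread between libraries.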

Other observations

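Perineurial genes, which mark the sheath around each bundle and not the fibroblasts described above, had a median difference of 0.13 over both backgrounds, with 8 of 11 tested genes above 0 and none called with or without the block. Their summed level lay between 383 and 510 FPKM in the 8 libraries. The difference between the transgene's effects in the mutant and WT backgrounds was above 0 in 11 of 11, against 50.2% of all tested genes. Its median was 0.31 against 0.00 over all tested genes, and no gene was called. It was also above 0 in 8 of 8 endothelial genes (median 0.18), 7 of 9 adipocyte genes (0.39) and 3 of 9 macrophage genes (-0.14). This comparison includes the male Q215X/+ pair and the female double. Macrophage genes summed to 222 to 269 FPKM, and endothelial genes to 132 to 205 FPKM.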
